A study of Mus musculus with 17 samples.

Results

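The Rab GTPases, SNAREs, sorting nexins and Vps genes are 118 mouse genes of membrane trafficking, measured here in tumor-associated macrophages and in sorted bone marrow cells. They are the rows of the count table whose symbol is Rab, Snx, Vamp, Stx or Vps followed by a number, out of 10207 rows with a symbol: 43 Rab GTPases, 18 SNAREs (VAMPs and syntaxins), 25 sorting nexins and 32 Vps genes. Of these, 98 had enough counts to be tested (33 Rab, 17 SNARE, 20 sorting nexin and 28 Vps genes), among 7518 genes tested in all. The rule reads the symbol, so it takes in Vps72, which encodes a chromatin protein, and leaves out partners with other names.

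The mice were female BALB/c. TAM are tumor-associated macrophages (3 libraries), sorted as CD11b+ Gr1- F4/80+ after enrichment for CD45-positive cells from digested 4T1-luc tumors. 4T1-luc is a luciferase-expressing line of mouse mammary carcinoma cells. In those mice, 100000 such cells had been placed in a mammary fat pad and tumors were collected at 1 cm. BMDM_T are CD11b+ Gr1+ F4/80low cells flushed from the leg bones of tumor-bearing mice (4 libraries), and BMDM_H are cells of the same gate from healthy mice that received no tumor cells (4 libraries). The labels give 8 weeks as the age of the tumor-bearing mice and 12 weeks for the healthy mice, so tumor and labelled age cannot be told apart in BMDM_T against BMDM_H. TAM differ from both marrow groups in tissue, sort gate and digestion, and from BMDM_H also in tumor bearing and labelled age. These cannot be told apart either. Whether each replicate came from its own mouse is not in the labels; the p-values thus reflect only how far these libraries spread, and that spread may be technical.

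Rab proteins are small GTPases that mark a compartment and recruit motors, tethers and coats to it. SNAREs on a vesicle (VAMPs) and on its target (syntaxins) zip together to fuse the membranes. Sorting nexins bind phosphoinositides on endosomes, and those with a BAR domain bend the membrane into the tubules that carry cargo away from degradation. The Vps genes encode retromer, which retrieves cargo from endosomes, the HOPS, CORVET and GARP tethers, and the ESCRT machinery that forms intralumenal vesicles. In phagocytes this machinery serves phagosome maturation and antigen handling, and in granulocytes it also serves the release of stored granules.

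Total counts were 1748338 to 3747929 in TAM, 931278 to 1218977 in BMDM_T and 387940 to 1286844 in BMDM_H, where replicates 3 and 4 were the shallowest, and the 118 genes took 0.807% to 0.900% of the counts of each library. Levels are given as CPM, read counts scaled by the library total and its TMM factor. They come from 3'-end libraries and are compared between groups, not between genes. The macrophage marker list summed to 59374 to 73238 CPM in TAM, against 2101 to 2604 CPM in BMDM_T and 2700 to 3690.1 CPM in BMDM_H, with 9 of 9 genes detected in each group. The neutrophil granule list summed to 330.03 to 556 CPM in TAM, against 162958 to 197662 CPM in BMDM_T and 136781 to 208072 CPM in BMDM_H, with 11 of 11 genes detected in each group, although the marrow gate is labelled as monocytes. The classical monocyte list summed to 1136 to 1597 CPM in TAM, 1220.3 to 1819.6 CPM in BMDM_T and 1977 to 3522 CPM in BMDM_H. Basophil or eosinophil genes summed to 0.259 to 1.06 CPM in TAM, with 2 of the 4 in the table at 0, against 364 to 440.2 CPM in BMDM_T and 291 to 591 CPM in BMDM_H. B cell genes summed to 6.67 to 13.8 CPM in TAM, with 4 of 5 at 0, against 236 to 416 CPM in BMDM_T and 121 to 311 CPM in BMDM_H. T or NK cell genes (4 of 7 in the table) summed to 2.59 to 6.67 CPM in TAM, against 259 to 312 CPM in BMDM_T and 200.3 to 314 CPM in BMDM_H. Red cell precursor genes (7 of 9 in the table) summed to 11.1 to 15.8 CPM in TAM, with 5 at 0, and 6.31 to 20.2 CPM in BMDM_T, with 2 at 0, against 59.7 to 315 CPM in BMDM_H. Fibroblast and endothelial genes (4 of 7 and 2 of 6 in the table) summed to at most 44.2 and 9.65 CPM in any library, the fibroblast genes to 8.79 to 26.5 CPM in TAM. Epithelial genes summed to 77.8 to 117 CPM in TAM, against 21.5 to 46.2 CPM in BMDM_T and 33.4 to 80.7 CPM in BMDM_H. The part of these cell types in the differences below was not tested, and in such bulk libraries fewer cells of a type and less RNA per cell cannot be told apart.

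The promoters of 4 genes are shown because they belong to the members with the most extreme changes between TAM and BMDM_T, among members of at least 30 CPM with an entry in the promoter table. Stx11 and Rab27a were lower in TAM, and Snx5 and Snx8 were higher. Each is 250 bases before to 50 bases after a RefSeq start, in GRCm38.p6, written 5′ to 3′ on the gene's strand. Capitals mark the E-box CACGTG, which the MiT/TFE and Myc factors bind, and GAGGAAG, a core of PU.1 sites.
Stx11, chr10:12964210-12964509, minus strand: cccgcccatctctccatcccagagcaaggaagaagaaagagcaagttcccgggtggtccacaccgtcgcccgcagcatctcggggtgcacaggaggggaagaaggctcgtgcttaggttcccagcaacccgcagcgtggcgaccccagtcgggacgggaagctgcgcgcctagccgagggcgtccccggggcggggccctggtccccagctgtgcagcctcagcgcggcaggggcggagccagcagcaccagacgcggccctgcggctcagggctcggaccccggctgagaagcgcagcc
Rab27a, chr9:73044560-73044859, plus strand: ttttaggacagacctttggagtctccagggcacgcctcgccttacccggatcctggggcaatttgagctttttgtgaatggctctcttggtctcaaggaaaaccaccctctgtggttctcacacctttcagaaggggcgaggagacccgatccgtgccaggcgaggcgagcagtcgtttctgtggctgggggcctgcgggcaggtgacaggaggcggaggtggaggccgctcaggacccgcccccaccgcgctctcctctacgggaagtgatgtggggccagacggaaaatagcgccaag
Snx5, chr2:144270523-144270822, minus strand: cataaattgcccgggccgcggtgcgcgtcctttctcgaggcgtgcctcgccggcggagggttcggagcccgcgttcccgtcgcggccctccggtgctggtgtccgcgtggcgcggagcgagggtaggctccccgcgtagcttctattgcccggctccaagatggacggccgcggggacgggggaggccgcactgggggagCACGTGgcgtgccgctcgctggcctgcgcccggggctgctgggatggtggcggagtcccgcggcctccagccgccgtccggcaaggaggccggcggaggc
Snx8, chr5:140389259-140389558, minus strand: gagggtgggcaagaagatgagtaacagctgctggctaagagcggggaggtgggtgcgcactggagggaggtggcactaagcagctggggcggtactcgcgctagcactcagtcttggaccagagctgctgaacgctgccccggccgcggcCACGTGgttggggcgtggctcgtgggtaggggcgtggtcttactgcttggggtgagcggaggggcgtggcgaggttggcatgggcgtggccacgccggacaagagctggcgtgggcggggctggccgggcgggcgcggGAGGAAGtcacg
A promoter entry was found for 91 of the 118 genes. On either strand, CACGTG was in 15% of the promoters of members higher in TAM (3 of 20), in 15% of those lower in TAM (3 of 20), and in 8.09% of all 27025 genes with an entry. GAGGAAG was in 15% of both member groups and in 15.4% of all genes. TGANTCA, an AP-1 motif, was in 0% of the promoters of higher and 5% of those of lower members, against 8.97% of all genes. TTGCNNAA, a C/EBP motif, was in 20% of higher (4 of 20) and 5% of lower members (1 of 20), against 12.2% of all genes. The promoters of higher and lower members held a median of 27 and 22 CpG, against 8 over all genes with an entry. Each gene counts with the largest number over its starts. The 27025 genes were not limited to those tested here. The motif shares are thus not set against promoters of like base composition or expression. Where a gene has several starts, a match in any of them counts, and the window of Rab27a shown is the upstream one of 2, the other holding 1 CACGTG. These motifs were not tested, and a match describes letters in a window, not a bound site.

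Between TAM and BMDM_T, the trafficking genes moved in both directions. Of the 98 tested, 26 were higher in TAM and 25 were lower, 52.0% in all, beside a background of 58.9% of the 7518 genes (30.1% higher, 28.7% lower). Their median absolute log2 fold change was 0.59, against 0.77 over all genes tested, and their median log2 fold change was 0.13, against 0.03. Adjusted p-values here and below come from edgeR's quasi-likelihood test with Benjamini-Hochberg adjustment over those 7518 genes, called under 0.05, and ± beside a log2 fold change is its standard error (SE). The libraries of TAM lay above all those of BMDM_T for 28 tested members, below them for 27, and overlapped for 43, so 56.1% did not overlap, beside 58.1% of the 7518 genes (30.4% above, 27.7% below). By family, 5 Rab genes were higher and 13 lower of 33, 4 SNAREs higher and 4 lower of 17, 10 sorting nexins higher and 3 lower of 20, and 7 Vps genes higher and 5 lower of 28. Falls outnumbered rises among the Rab genes, and rises outnumbered falls among the sorting nexins, under each of the 19 alternatives run too, including scaling by library totals, which moved the median log2 fold change of all genes by 0.15. No test of the difference between families or roles was run. The counts by role below hold few genes each and stand beside the same 30.1% higher and 28.7% lower of all genes tested.

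**Figure D1:**
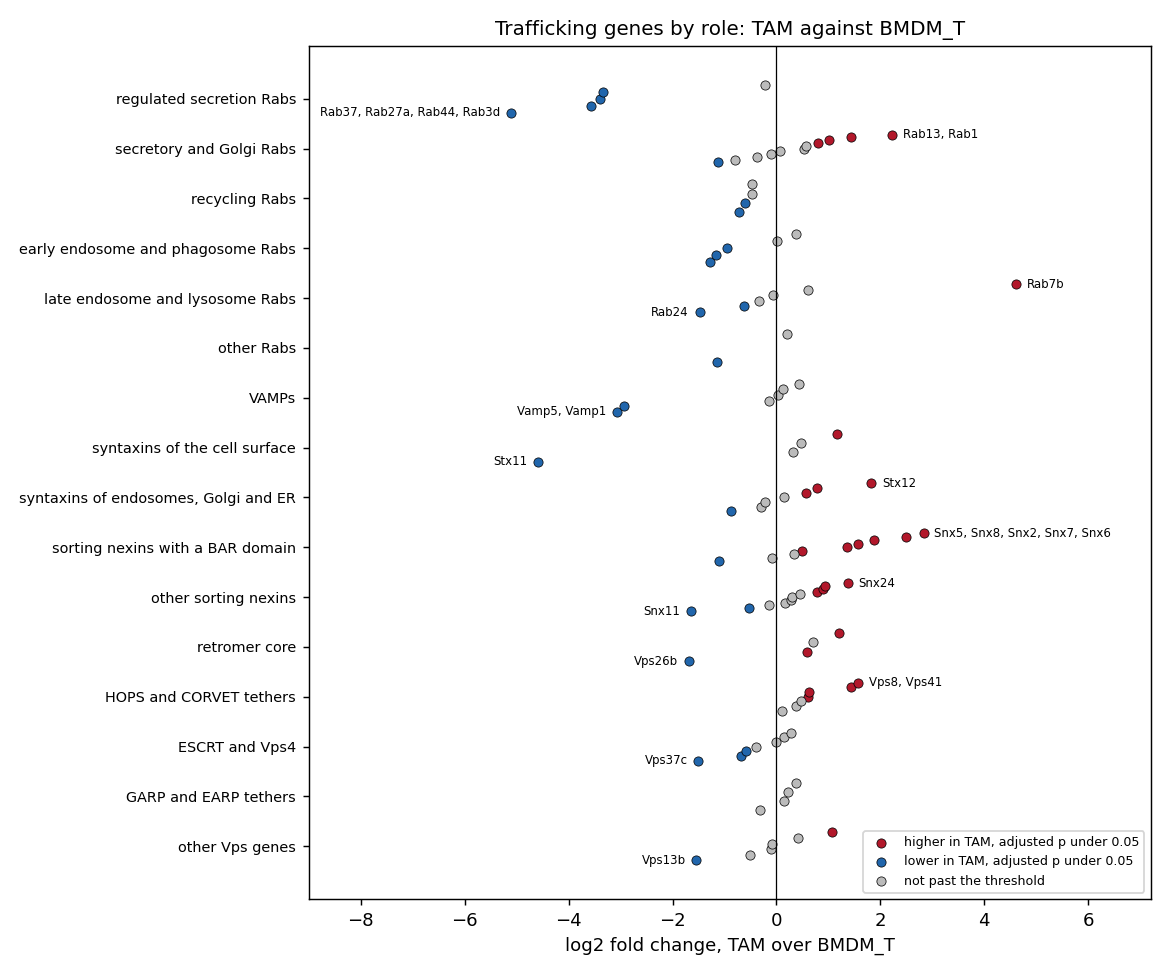
Log2 fold change of each tested member, TAM over BMDM_T, in rows by role; red points were higher in TAM, blue points lower, and grey points did not pass an adjusted p of 0.05. The regulated secretion Rabs hold 4 of their 5 points between -5.11 and -3.34, while 6 of the 9 sorting nexins with a BAR domain lie to the right as red points.

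The Rabs of regulated secretion held the 4 largest falls among the tested Rabs in TAM against BMDM_T. Of 5 tested, Rab27a, Rab3d, Rab44 and Rab37 were lower, beside 28.7% of all genes tested, and Rab3a did not pass the test. Rab27a, which docks secretory granules at the plasma membrane and is lost in human Griscelli syndrome, had 12.8, 18.03 and 16.8 CPM in the TAM libraries, against 137, 209, 209 and 207 CPM in BMDM_T and 158, 183, 171 and 138 CPM in BMDM_H. No TAM library came near a marrow library, while the marrow groups overlapped. The log2 fold change was -3.57 ± 0.21 (SE) against BMDM_T, with an adjusted p of 1.56e-11. Against BMDM_H it was -3.35 ± 0.21, with an adjusted p of 5.62e-11. The gene lies on chromosome 9, 73044854 to 73097629 on the plus strand (GRCm38/mm10, GENCODE M21, as are the other gene positions below).

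Rab3d, a Rab of secretory granules in exocrine and mast cells (chromosome 9, 21907491 to 21918192 on the minus strand), had 38.3, 22.8 and 24.04 CPM in the TAM libraries, against 340.2, 245, 249 and 301 CPM in BMDM_T and 289, 282, 296 and 315 CPM in BMDM_H. Its lowest marrow library was far above its highest TAM library. The log2 fold change was -3.34 ± 0.21 against BMDM_T and -3.39 ± 0.21 against BMDM_H, with adjusted p-values of 3.05e-11 and 3.42e-11. Rab44, an unusually large Rab with calcium-binding EF hands that takes part in mast cell degranulation, had 30.003, 14.3 and 11.4 CPM in the TAM libraries, against 189, 169.8, 187 and 198 CPM in BMDM_T and 174, 162, 197 and 154 CPM in BMDM_H. TAM replicate 1 was the highest of the TAM libraries and still far below every marrow library. The log2 fold change was -3.39 ± 0.25 against BMDM_T (adjusted p = 3.8e-10) and -3.27 ± 0.25 against BMDM_H (adjusted p = 9e-10).

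Rab37, found on mast cell and leukocyte granules, had 1 count in all TAM libraries together, against 31 in BMDM_T and 52 in BMDM_H. That is 0, 0 and 0.259 CPM in the TAM libraries, against 11.8, 5.88, 4.62 and 8.12 CPM in BMDM_T and 20.7, 12.1, 16.7 and 5.20 CPM in BMDM_H. Scaled for depth, BMDM_T over TAM was 57.2-fold (95% exact interval 9.53 to 2330.0) and BMDM_H over TAM was 115-fold (19.7 to 4620.0), intervals that cover counting error only. The adjusted p was 8.75e-06 against BMDM_T and 3.55e-07 against BMDM_H. TAM replicate 3 held the single count, and without it the fitted log2 fold change went past the -5.11 of all libraries, to -6.12 against BMDM_T, and against BMDM_H it was -6.06 with all libraries and -7.05 without it. Rab3a, a synaptic vesicle Rab, had 8.33, 5.83 and 8.27 CPM in the TAM libraries, against 9.69, 8.40, 8.08 and 9.02 CPM in BMDM_T and 11.1, 5.63, 20.5 and 15.6 CPM in BMDM_H. TAM overlapped both marrow groups, with a log2 fold change of -0.22 ± 0.38 against BMDM_T (adjusted p = 0.643). An exon of Mpv17l2 on the other strand lies in the last kilobase of Rab3a, so their reads may not be separated. Mpv17l2 had a mean of 54.2 CPM in TAM and 37.6 CPM in BMDM_T, with a log2 fold change of 0.50. The neutrophil granule, basophil or eosinophil, B cell and T or NK cell marker sums given above moved with Rab27a, Rab3d, Rab44 and Rab37. The part of these cell types was not tested.

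The largest fall among the tested SNAREs was that of Stx11. Stx11, a syntaxin needed for cytotoxic granule release and mutated in a human familial hemophagocytic lymphohistiocytosis (chromosome 10, 12938209 to 12964298 on the minus strand), had 1.67, 2.12 and 2.84 CPM in the TAM libraries, against 35.5, 67.2, 66.96 and 64.9 CPM in BMDM_T and 55.7, 61.1, 63.2 and 41.6 CPM in BMDM_H. The 3 TAM libraries together held 18 counts, against 243 in BMDM_T and 196 in BMDM_H. The log2 fold change was -4.59 ± 0.32 against BMDM_T (adjusted p = 1.69e-10) and -4.53 ± 0.33 against BMDM_H (adjusted p = 3.37e-10). Another syntaxin of the cell surface went the other way: Stx4a, which works in exocytosis at the plasma membrane of many cells, was higher in TAM, at 356, 373 and 384 CPM in the TAM libraries, against 148, 163, 169 and 179 CPM in BMDM_T and 177, 182, 214 and 200.4 CPM in BMDM_H. No library of TAM overlapped the marrow for Stx4a, and the log2 fold change was 1.17 ± 0.15 (adjusted p = 7.6e-07). Stx2 and Stx3 did not pass the test against either marrow group, and Stx2 had 65.01, 78.5 and 81.4 CPM in TAM, 54.9, 69.8, 55.4 and 58.6 CPM in BMDM_T and 66.1, 69.97, 81.8 and 46.8 CPM in BMDM_H.

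Among the 6 tested VAMPs, Vamp5 and Vamp1 were lower in TAM. Vamp5, a VAMP first described in muscle, had 1.11, 3.71 and 2.07 CPM in the TAM libraries, against 36.6, 6.72, 15.01 and 21.6 CPM in BMDM_T and 19.9, 7.24, 20.5 and 15.6 CPM in BMDM_H. Its marrow libraries were widely spread, with 6.72 CPM in BMDM_T replicate 2, but none reached down to TAM. The log2 fold change was -3.07 ± 0.55 against BMDM_T, with an adjusted p of 5.8e-05. Vamp1, a synaptobrevin, was low throughout (7 counts in TAM, 31 in BMDM_T and 26 in BMDM_H), with a log2 fold change of -2.93 ± 0.72 and an adjusted p of 0.00116 against BMDM_T. Its BMDM_H replicate 1, at 1.59 CPM, lay within the TAM range. Vamp8, which serves fusion of endosomes and of granules, overlapped between the groups, with 727, 776 and 734 CPM in the TAM libraries, against 733, 646, 747 and 788 CPM in BMDM_T and 556, 528, 757 and 583 CPM in BMDM_H. Its log2 fold change was 0.03 ± 0.16 against BMDM_T and 0.30 ± 0.16 against BMDM_H. Vamp3, of recycling endosomes, and Vamp4, of the trans-Golgi network, did not pass the test against either group.

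**Figure D2:**
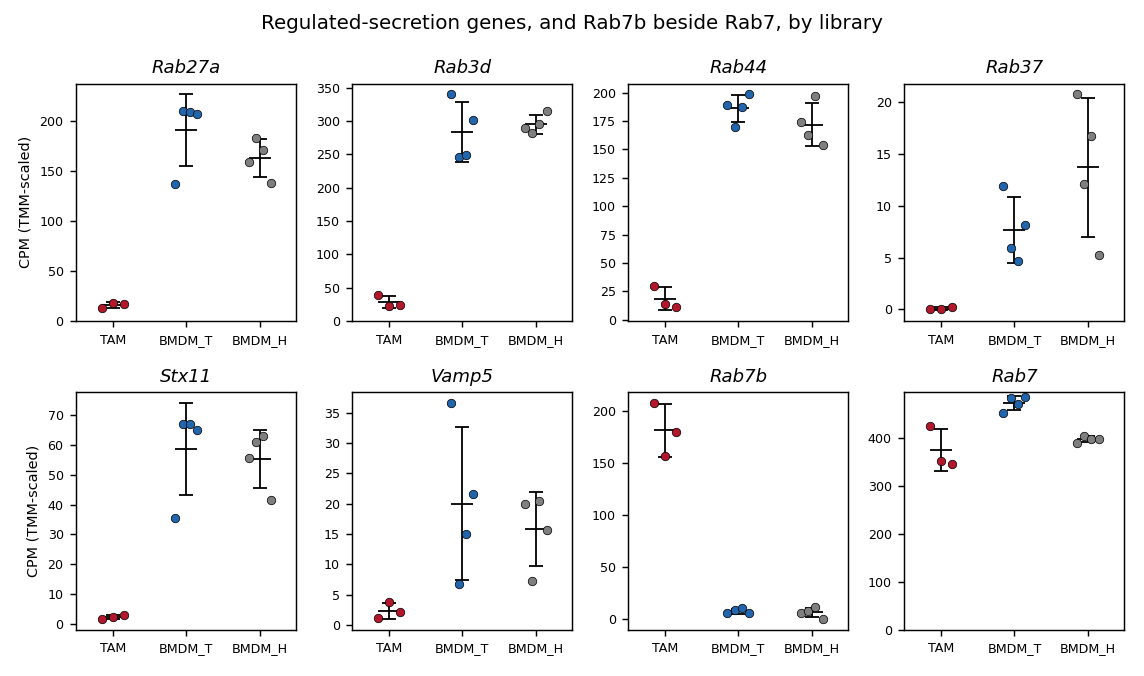
CPM (TMM-scaled) of 8 genes by library; points are libraries, horizontal bars the group mean and whiskers the SD (TAM n = 3, BMDM_T and BMDM_H n = 4 each). Rab27a, Rab3d, Rab44, Rab37, Stx11 and Vamp5 lie lowest in TAM. Rab7b lies highest in TAM, and the values of Rab7 lie between 347 and 485 CPM in all groups. Rab3a and Vamp8, which did not pass the test, are not shown.

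The largest rise among the tested members was that of Rab7b. It encodes a Rab of late endosomes and the trans-Golgi network that has been described in macrophages, where it promotes degradation of Toll-like receptors. Rab7b (chromosome 1, 131688695 to 131715439 on the plus strand) had 208, 157 and 180.5 CPM in the TAM libraries, against 5.38, 8.40, 10.4 and 5.41 CPM in BMDM_T and 5.57, 8.04, 11.2 and 0 CPM in BMDM_H. The lowest TAM library exceeded every marrow library, and BMDM_H replicate 4, the shallowest library, had no count. The log2 fold change was 4.61 ± 0.28 against BMDM_T (adjusted p = 1.91e-11) and 4.74 ± 0.30 against BMDM_H (adjusted p = 4.29e-11). Rab7, which drives late endosome and lysosome fusion, had 426, 352 and 347 CPM in TAM, against 453, 483, 471 and 485 CPM in BMDM_T and 389.99, 405, 398 and 398 CPM in BMDM_H. All TAM libraries lay below those of BMDM_T and 2 of 3 lay below those of BMDM_H, but the log2 fold change of -0.34 ± 0.15 did not pass the test (adjusted p = 0.0571). It passed under 6 of the 19 alternatives, among them DESeq2 (adjusted p = 0.0144), limma-voom (adjusted p = 0.0311) and leaving out TAM replicate 1 (adjusted p = 0.0291).

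Of the other late endosome and lysosome Rabs tested, Rab24 and Rab32 were lower, and Rab9 and Rab29 did not pass the test. Rab24, which acts in autophagy (chromosome 13, 55319743 to 55321946 on the minus strand), had 195, 199.96 and 149 CPM in the TAM libraries, against 495, 414, 515 and 589.9 CPM in BMDM_T and 374, 328, 340.3 and 375 CPM in BMDM_H. The groups did not overlap, and the log2 fold change was -1.48 ± 0.17 against BMDM_T (adjusted p = 3.79e-07) and -0.97 ± 0.17 against BMDM_H (adjusted p = 8.1e-05). An exon of Prelid1 on the other strand lies in the last kilobase of Rab24. The strand setting of the counting is not given in the sources used here, so reads of the 2 genes may not be separated; Prelid1 had a log2 fold change of -0.10. Rab32, of lysosome-related organelles, had 53.9, 52.5 and 82.5 CPM in the TAM libraries, against 53.8, 129, 95.8 and 111 CPM in BMDM_T and 108, 122, 102 and 75.5 CPM in BMDM_H, with an overlap of TAM and BMDM_T. Its adjusted p of 0.0323 against BMDM_T was lost under 5 alternatives, up to 0.123, among them leaving out TAM replicate 1 or 2, or BMDM_T replicate 2 or 4. Rab34, a Rab of phagosomes and macropinosomes with too few counts to be tested, had 13.3, 9.02 and 7.76 CPM in the TAM libraries, against 1.08, 1.68, 1.15 and 0.902 CPM in BMDM_T and 0.796, 0.804, 1.86 and 5.20 CPM in BMDM_H.

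Against BMDM_T, the early endosome and phagosome Rabs were lower in TAM or did not pass the test in the reported fit. Rab5b, a Rab of early endosome fusion, had 19.4, 16.4 and 21.7 CPM in the TAM libraries, against 69.98, 30.3, 46.2 and 43.3 CPM in BMDM_T and 39.8, 42.6, 46.5 and 52.05 CPM in BMDM_H, with a log2 fold change of -1.27 ± 0.25 (adjusted p = 0.000205). Rab21, which carries integrins into early endosomes, had 36.7, 40.3 and 39.04 CPM in the TAM libraries, against 93.7, 73.1, 98.1 and 83.9 CPM in BMDM_T and 71.6, 76.4, 96.7 and 33.8 CPM in BMDM_H. BMDM_H replicate 4, at 33.8 CPM, lay below the TAM libraries, and the other marrow libraries lay above them; the log2 fold change was -1.16 ± 0.22 against BMDM_T (adjusted p = 0.000131). Rab31, which links the trans-Golgi network to endosomes, was lower at a log2 fold change of -0.95 ± 0.16 (adjusted p = 3.32e-05). Rab5c, a close relative of Rab5b, had 679.5, 497 and 541 CPM in TAM, 519, 345, 421 and 469 CPM in BMDM_T and 372, 379, 394 and 419 CPM in BMDM_H. TAM lay above BMDM_H in every library but overlapped BMDM_T. Its log2 fold change was 0.38 ± 0.17 against BMDM_T (adjusted p = 0.0582). That rise passed with library totals (adjusted p = 0.00769), DESeq2 (0.0459), limma-voom (0.0436), the replicate block (0.0287) and without BMDM_T replicate 1 (0.0382). Against BMDM_H the log2 fold change of Rab5c was 0.55 ± 0.17 (adjusted p = 0.00965, and 0.0656 without TAM replicate 1).

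Among the 11 tested Rabs of the secretory path and Golgi, 4 were higher in TAM and 1 was lower, beside 30.1% and 28.7% of all genes tested. Rab13, which moves cargo from the trans-Golgi network and recycling endosomes to the cell surface, had 28.9, 36.1 and 26.6 CPM in the TAM libraries, against 5.38, 3.36, 9.24 and 8.12 CPM in BMDM_T and 5.57, 3.22, 3.72 and 10.4 CPM in BMDM_H. Every TAM library was above every marrow library, with a log2 fold change of 2.23 ± 0.33 against BMDM_T (adjusted p = 7.5e-06). Rab1, of transport from the endoplasmic reticulum to the Golgi, had 25.6, 24.4 and 29.7 CPM in the TAM libraries, against 6.46, 10.1, 15.01 and 8.12 CPM in BMDM_T and 11.9, 15.3, 16.7 and 15.6 CPM in BMDM_H, with a log2 fold change of 1.44 ± 0.28 (adjusted p = 0.000164). Against BMDM_H the adjusted p of Rab1 was 0.01, and 0.0503 without BMDM_H replicate 1. Rab12 and Rab43 were higher by 1.02 ± 0.28 and 0.80 ± 0.18 on the log2 scale, and an exon of a predicted gene on the same strand lies in the last kilobase of Rab43. Rab2a, Rab6a, Rab8b, Rab19 and Rab33b did not pass the test against BMDM_T, with log2 fold changes of -0.79 to 0.56.

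Rab8a, which brings vesicles from the trans-Golgi network to the plasma membrane and is recruited to macrophage ruffles and phagosomes, was the member of this group that was lower. It had 233, 185 and 192 CPM in the TAM libraries, against 489.9, 402, 464 and 418 CPM in BMDM_T and 388, 294, 383 and 406 CPM in BMDM_H. The groups did not overlap, and the log2 fold change was -1.12 ± 0.17 (adjusted p = 9.31e-06). Rab1b, a close relative of Rab1 that did not pass the test, had 231, 198 and 162 CPM in TAM, 294, 196, 240.1 and 292 CPM in BMDM_T and 284, 245, 216 and 211 CPM in BMDM_H, with an adjusted p of 0.0773 against BMDM_T. That p was 0.0257 without BMDM_T replicate 2 and 0.0371 without TAM replicate 1.

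Of the 4 tested recycling Rabs, Rab4b and Rab35 were lower in TAM than in BMDM_T, and Rab14 and Rab11b did not pass the test. Rab35, which returns cargo from endosomes to the surface, had a log2 fold change of -0.61 ± 0.15 (adjusted p = 0.0019), and against BMDM_H it was -0.27 ± 0.16 (adjusted p = 0.152). Rab14, which links the Golgi and endosomes, had 12.2, 30.2 and 17.8 CPM in TAM, against 44.1, 21.01, 17.3 and 28.9 CPM in BMDM_T and 38.2, 32.2, 27.9 and 2.60 CPM in BMDM_H. Rab28, a Rab of cilia and photoreceptors placed in no other group, had 26.1, 25.99 and 23.8 CPM in the TAM libraries, against 52.8, 49.6, 63.5 and 57.7 CPM in BMDM_T and 50.9, 64.3, 40.9 and 62.5 CPM in BMDM_H. Its TAM libraries lay below all marrow libraries, with a log2 fold change of -1.14 ± 0.20 (adjusted p = 5.33e-05), whereas Rab40c, with 30.6, 37.1 and 36.97 CPM in TAM, overlapped both marrow groups.

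Among the 7 tested syntaxins of endosomes, Golgi and endoplasmic reticulum, Stx12, Stx7 and Stx16 were higher in TAM and Stx17 was lower. Stx12, a syntaxin of recycling endosomes, had 81.1, 53.6 and 67.99 CPM in the TAM libraries, against 24.8, 18.5, 10.4 and 21.6 CPM in BMDM_T and 16.7, 17.7, 20.5 and 13.01 CPM in BMDM_H. No marrow library reached the TAM values, and the log2 fold change was 1.83 ± 0.24 against BMDM_T (adjusted p = 1.91e-06) and 1.97 ± 0.26 against BMDM_H (adjusted p = 1.82e-06). Stx7, of late endosome fusion, was higher by 0.78 ± 0.16 (adjusted p = 0.000407). Stx17, which joins autophagosomes to lysosomes, had a log2 fold change of -0.87 ± 0.31 (adjusted p = 0.0185), a call lost with DESeq2 (adjusted p = 0.0542) and without TAM replicate 2 (adjusted p = 0.0512). Stx5a, a Golgi syntaxin, had 71.1, 98.7 and 69.03 CPM in TAM, 108, 97.5, 98.1 and 88.4 CPM in BMDM_T and 114, 97.3, 104 and 83.3 CPM in BMDM_H and did not pass the test (adjusted p = 0.136). Without TAM replicate 2 its adjusted p was 0.0328.

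The sorting nexins with a BAR domain were higher in TAM in 6 of 9 tested members, with 1 lower, beside 30.1% and 28.7% of all genes. Snx5, Snx6, Snx1 and Snx2 pair into the coat that carries retromer-type cargo out of endosomes, and all 4 were called higher. Snx5 (chromosome 2, 144250123 to 144270906 on the minus strand) had 92.2, 59.4 and 165 CPM in the TAM libraries, against 18.3, 9.25, 12.7 and 19.8 CPM in BMDM_T and 14.3, 28.2, 26.03 and 26.02 CPM in BMDM_H. The TAM libraries were spread but all lay above the marrow, with a log2 fold change of 2.83 ± 0.33 against BMDM_T (adjusted p = 3.12e-07) and 2.22 ± 0.32 against BMDM_H (adjusted p = 7.64e-06). Snx2 had 111, 99.7 and 125 CPM in the TAM libraries, against 35.5, 44.5, 19.6 and 21.6 CPM in BMDM_T and 31.04, 40.2, 40.9 and 28.6 CPM in BMDM_H, with a log2 fold change of 1.87 ± 0.23 (adjusted p = 6.04e-07). Snx6 had 119, 143 and 153 CPM in the TAM libraries, against 52.8, 57.99, 61.2 and 46.005 CPM in BMDM_T and 67.7, 47.5, 68.8 and 57.3 CPM in BMDM_H, and its log2 fold change was 1.35 ± 0.17 (adjusted p = 1.34e-06). Neither gene had a marrow library within the TAM range. Snx1 had 174, 193 and 225 CPM in the TAM libraries, against 160.4, 153, 130.5 and 119.97 CPM in BMDM_T and 107, 134, 112 and 88.5 CPM in BMDM_H. Its rise of 0.49 ± 0.17 was the smallest of the 4 (adjusted p = 0.0154), and the call was lost without BMDM_T replicate 3 (adjusted p = 0.0503), without BMDM_T replicate 4 (0.0621) and without TAM replicate 3 (0.091).

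Snx8, a BAR sorting nexin that moves cargo from early endosomes toward the Golgi (chromosome 5, 140340299 to 140389262 on the minus strand), had 141, 112 and 108 CPM in the TAM libraries, against 17.2, 27.7, 19.6 and 19.8 CPM in BMDM_T and 15.9, 14.5, 14.9 and 23.4 CPM in BMDM_H. The lowest TAM library was far above the highest marrow library, with a log2 fold change of 2.49 ± 0.20 against BMDM_T (adjusted p = 2.06e-09) and 2.87 ± 0.22 against BMDM_H (adjusted p = 1.11e-09). Snx7 was higher by 1.57 ± 0.47 (adjusted p = 0.00691), while Snx4, its partner in recycling of the transferrin receptor, was lower, with a log2 fold change of -1.11 ± 0.31 (adjusted p = 0.00398). Snx4 had 16.1, 14.3 and 14.7 CPM in TAM, against 50.6, 26.1, 28.9 and 25.3 CPM in BMDM_T and 22.3, 24.1, 24.2 and 5.20 CPM in BMDM_H. BMDM_H replicate 4 lay below the TAM libraries, and against BMDM_H the change of -0.45 ± 0.33 did not pass the test (adjusted p = 0.25). Snx18, an endocytic BAR sorting nexin, had 42.8, 29.7 and 23.5 CPM in TAM, 44.1, 26.9, 27.7 and 35.2 CPM in BMDM_T and 42.2, 26.5, 33.5 and 44.2 CPM in BMDM_H, with overlapping groups.

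Of the 11 tested sorting nexins without a BAR domain, 4 were higher in TAM and 2 were lower, beside 30.1% and 28.7% of all genes. Snx11, a small sorting nexin of endosomes, had 43.3, 46.7 and 44.98 CPM in the TAM libraries, against 139, 122, 166 and 138 CPM in BMDM_T and 157, 128, 171 and 128 CPM in BMDM_H. The TAM values lay close together and below every marrow value, with a log2 fold change of -1.64 ± 0.17 (adjusted p = 6.61e-08); a predicted gene on the other strand has an exon in its last kilobase. Snx24 had 30.6, 30.8 and 40.1 CPM in the TAM libraries, against 7.54, 19.3, 16.2 and 9.02 CPM in BMDM_T and 15.9, 15.3, 18.6 and 15.6 CPM in BMDM_H and was higher by 1.37 ± 0.28 (adjusted p = 0.000265). Snx3, which recruits retromer to early endosomes, had 277, 287 and 281 CPM in the TAM libraries, against 154, 176, 148 and 129 CPM in BMDM_T and 210.1, 169, 151 and 167 CPM in BMDM_H, above all marrow libraries, with a log2 fold change of 0.89 ± 0.16 (adjusted p = 5.82e-05). Snx27, the retromer adaptor that returns receptors to the surface, was lower, with a log2 fold change of -0.53 ± 0.18 (adjusted p = 0.0172), and its adjusted p was 0.101 with library totals in place of TMM factors and 0.0815 without TAM replicate 1. Snx25 was higher by 0.93 ± 0.31 (adjusted p = 0.0139, and 0.0805 without TAM replicate 3). The call of Snx21, at an adjusted p of 0.0496, was lost under 15 of the 19 alternatives, up to 0.205. Snx20, which binds the selectin ligand PSGL-1, had 400.04, 380.3 and 370.2 CPM in TAM, 359, 340.4, 352 and 316 CPM in BMDM_T and 232, 213, 266 and 289 CPM in BMDM_H. Each TAM library lay above those of BMDM_T, yet the change of 0.17 ± 0.15 did not pass the test (adjusted p = 0.357). Snx10, Snx12, Snx15 and Snx17 did not pass it either, with log2 fold changes of -0.14 to 0.45.

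Retromer is a trimer of Vps35, Vps29 and either Vps26a or Vps26b. Vps29 had 61.7, 78.5 and 103 CPM in the TAM libraries, against 46.3, 45.4, 24.2 and 25.3 CPM in BMDM_T and 36.6, 45.04, 27.9 and 26.02 CPM in BMDM_H. All TAM libraries lay above the marrow, with a log2 fold change of 1.21 ± 0.25 (adjusted p = 0.000303); an exon of Fam216a on the other strand lies in its last kilobase, and Fam216a had a log2 fold change of -0.36. Vps26a had 85.6, 73.7 and 85.1 CPM in the TAM libraries, against 65.7, 50.4, 47.3 and 55.02 CPM in BMDM_T and 68.4, 64.3, 31.6 and 70.3 CPM in BMDM_H, with a log2 fold change of 0.58 ± 0.20 (adjusted p = 0.02). That call was lost without TAM replicate 1 (0.0548), TAM replicate 3 (0.0583), BMDM_T replicate 2 (0.05) or BMDM_T replicate 3 (0.0651). Vps26b had 0.556, 2.65 and 3.62 CPM in the TAM libraries, against 9.69, 8.40, 9.24 and 6.31 CPM in BMDM_T and 17.5, 9.65, 16.7 and 10.4 CPM in BMDM_H and was lower, with a log2 fold change of -1.69 ± 0.47 (adjusted p = 0.00407). Without TAM replicate 3 its log2 fold change was -2.29, and against BMDM_H it was -2.40 with all libraries and -2.99 without TAM replicate 3. Vps35, the scaffold of the trimer, had 17.2, 15.9 and 15.8 CPM in TAM, against 2.15, 10.9, 15.01 and 11.7 CPM in BMDM_T and 13.5, 20.9, 5.58 and 2.60 CPM in BMDM_H. The marrow values of Vps35 spread widely, and the change of 0.70 ± 0.42 did not pass the test (adjusted p = 0.161).

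**Figure D3:**
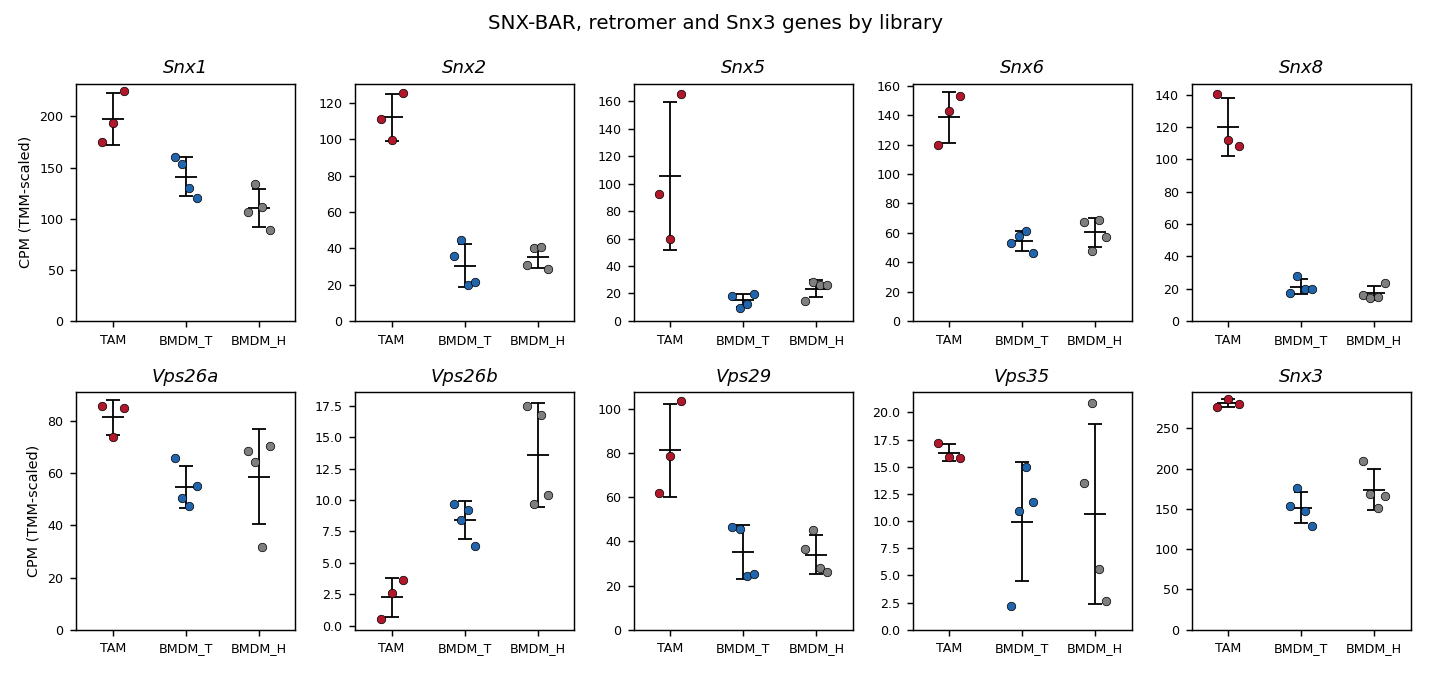
CPM (TMM-scaled) by library of the sorting nexins Snx1, Snx2, Snx5, Snx6 and Snx8, of the retromer genes Vps26a, Vps26b, Vps29 and Vps35, and of Snx3; points are libraries, bars the group mean, whiskers the SD (TAM n = 3, marrow groups n = 4 each). TAM lie above both marrow groups for all but Vps26b, where they lie below, and Vps35, where the groups overlap.

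Among the HOPS and CORVET tethers 4 of 7 tested genes were higher in TAM, beside 30.1% of all genes tested. Vps16, Vps33a and Vps39 did not pass the test. Vps8, a subunit found in CORVET, the tether of early endosomes, had 110.01, 89.1 and 73.4 CPM in the TAM libraries, against 24.8, 31.9, 34.6 and 29.8 CPM in BMDM_T and 35.8, 53.9, 39.1 and 59.9 CPM in BMDM_H. All TAM libraries lay above the marrow, with a log2 fold change of 1.57 ± 0.21 against BMDM_T (adjusted p = 2.28e-06). Vps41, a subunit found in HOPS, the tether of late endosomes and lysosomes, had 42.2, 42.96 and 57.4 CPM in the TAM libraries, against 22.6, 11.8, 17.3 and 19.8 CPM in BMDM_T and 17.5, 24.1, 18.6 and 23.4 CPM in BMDM_H, with a log2 fold change of 1.43 ± 0.24 (adjusted p = 3.59e-05). The shared core subunits moved less. Vps11 was higher by 0.61 ± 0.19 (adjusted p = 0.00953, and 0.0837 without TAM replicate 2). Vps18 was higher by 0.63 ± 0.26 at an adjusted p of 0.0425, which was lost under 14 of the 19 alternatives, up to 0.223. Vps16, also of the core, had 82.2, 106 and 99.02 CPM in TAM, 75.4, 103, 94.7 and 80.3 CPM in BMDM_T and 111, 80.4, 76.2 and 70.3 CPM in BMDM_H, with overlapping groups.

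Among the ESCRT genes and the Vps4 ATPases 3 of 7 tested genes were lower in TAM, beside 28.7% of all genes tested. Vps25, Vps37b, Vps4a and Vps4b did not pass the test. Vps37c, a subunit of ESCRT-I, had 32.8, 36.6 and 27.4 CPM in the TAM libraries, against 95.8, 82.4, 105 and 80.3 CPM in BMDM_T and 112, 92.5, 96.7 and 67.7 CPM in BMDM_H. The groups did not overlap, and the log2 fold change was -1.50 ± 0.19 (adjusted p = 1.41e-06). Vps36 of ESCRT-II and Vps28 of ESCRT-I were lower, with log2 fold changes of -0.69 ± 0.15 and -0.58 ± 0.17 and adjusted p-values of 0.000721 and 0.00696. Vps25, also of ESCRT-II, had 204, 162 and 126 CPM in TAM, 207, 169.8, 224 and 253 CPM in BMDM_T and 172, 119, 179 and 226 CPM in BMDM_H, and passed the test only without TAM replicate 1 (adjusted p = 0.0345, against 0.115 with all libraries), among the alternatives run. Vps37b had 237, 107 and 98.2 CPM in TAM, where replicate 1 stood above the other 2, against 136, 146, 171 and 141 CPM in BMDM_T and 136, 169, 152 and 193 CPM in BMDM_H. Its log2 fold change of -0.02 became -0.54 without that library (adjusted p = 0.0181, against 0.955), and against BMDM_H it became -0.65 (adjusted p = 0.00695, against 0.655). Exons of Hip1r, which had a log2 fold change of -6.40, lie in the last kilobase of Vps37b.

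None of the 4 GARP and EARP tether genes, which receive endosome-derived vesicles at the Golgi and recycling endosomes, passed the test against BMDM_T in edgeR, none had an unadjusted p under 0.05, and none passed with DESeq2 or limma-voom. Vps53 passed with library totals (adjusted p = 0.0472) and without BMDM_T replicate 3 (adjusted p = 0.0385). The log2 fold changes of Vps51, Vps52, Vps53 and Vps54 were -0.32 ± 0.20, 0.23 ± 0.18, 0.38 ± 0.22 and 0.15 ± 0.32. Vps51, shared by both tethers, had 75.6, 67.9 and 54.03 CPM in TAM, 85.1, 66.4, 91.2 and 84.8 CPM in BMDM_T and 81.98, 79.6, 78.1 and 130.1 CPM in BMDM_H. Among the other Vps genes, the lipid transfer genes Vps13b and Vps13c went in opposite directions, with log2 fold changes of -1.54 ± 0.44 and 1.07 ± 0.31 (adjusted p = 0.00472 and 0.0057). Vps13b was low throughout, with 20 counts in TAM, 31 in BMDM_T and 35 in BMDM_H. Against BMDM_H, the log2 fold change of Vps13c was 0.72 and did not pass the test (adjusted p = 0.055). Vps72, the chromatin protein, had 41.1, 39.8 and 35.2 CPM in TAM, 48.5, 30.3, 48.5 and 38.8 CPM in BMDM_T and 55.7, 49.9, 31.6 and 52.05 CPM in BMDM_H and did not pass the test.

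Several families hold close relatives, whose changes were set against each other. Within each library the log2 ratio of the counts of 2 such genes, with 0.5 added to each count, was compared between groups. The 11 pairs came from 9 sets that share a family name and number. For genes of few counts, such as Vps26b, the added 0.5 weighs more in shallow libraries. Only the change of a ratio between groups is read, since 3'-end counts do not compare the levels of 2 genes. The smallest exact two-sided permutation p that 3 libraries against 4 allow is 0.0571, so no pair could pass 0.05, and the ratios are given as a description. Pairs that share a gene are not independent. The log2 ratio of Rab7 to Rab7b was 1.05 on average in TAM, against 5.96 in BMDM_T. The ratio of Rab3a to Rab3d was -1.87 in TAM, against -4.93 in BMDM_T. The ratio of Vps26a to Vps26b was 5.29 in TAM, against 2.64 in BMDM_T. For Rab1 to Rab1b it was -2.87 in TAM, against -4.67 in BMDM_T, and for Rab5b to Rab5c it was -4.88 in TAM, against -3.24 in BMDM_T. For Rab8a to Rab8b it was 1.87 in TAM, against 2.96 in BMDM_T, and for Vps37b to Vps37c it was 2.07 in TAM, against 0.71 in BMDM_T. The pair that overlapped was that of the Vps4 ATPases, with a log2 ratio of Vps4a to Vps4b of 1.65 in TAM and 1.79 in BMDM_T (exact permutation p = 0.686). The other 10 pairs did not overlap, and 58.1% of all genes tested did not overlap singly. Ratios of unrelated genes were not computed, so these ratios are not read as a trait of close relatives. They draw on the same counts as the calls given above. The mapping of reads shared by near-identical copies is not given in the sources used here, so counts of close relatives may be split.

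**Figure D4:**
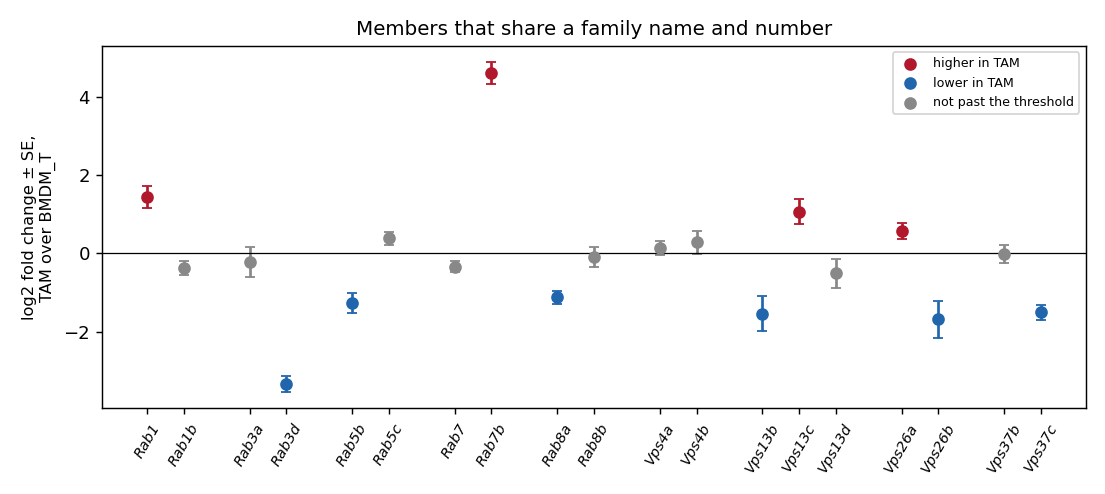
Log2 fold change, TAM over BMDM_T, with its SE, for tested members that share a family name and number, set side by side; red points were higher in TAM, blue points lower, and grey points did not pass an adjusted p of 0.05. In the set of Rab7 and Rab7b, the points stand at -0.34 and 4.61. How often unrelated genes stand apart in this way was not examined.

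Summed over all their genes, the Rab family gave 2773 to 3155 CPM in TAM, against 3916 to 4454 CPM in BMDM_T and 3534 to 3762 CPM in BMDM_H. The sorting nexins gave 1898 to 1999 CPM in TAM, against 1278 to 1508 CPM in BMDM_T and 1299.9 to 1376 CPM in BMDM_H. The Rab sums of TAM lay below and the sorting nexin sums above those of every marrow library, and likewise when library totals replaced the TMM factors. A sum weighs each gene by its counts, so it follows the abundant genes and need not reflect a change across a family. SNARE sums were 1833 to 1952 CPM in TAM, against 1525 to 1670.6 CPM in BMDM_T and 1509.8 to 1752 CPM in BMDM_H. The Vps sums overlapped, at 1694 to 1861 CPM in TAM, 1649 to 1815 CPM in BMDM_T and 1640.2 to 1862 CPM in BMDM_H.

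**Figure D5:**
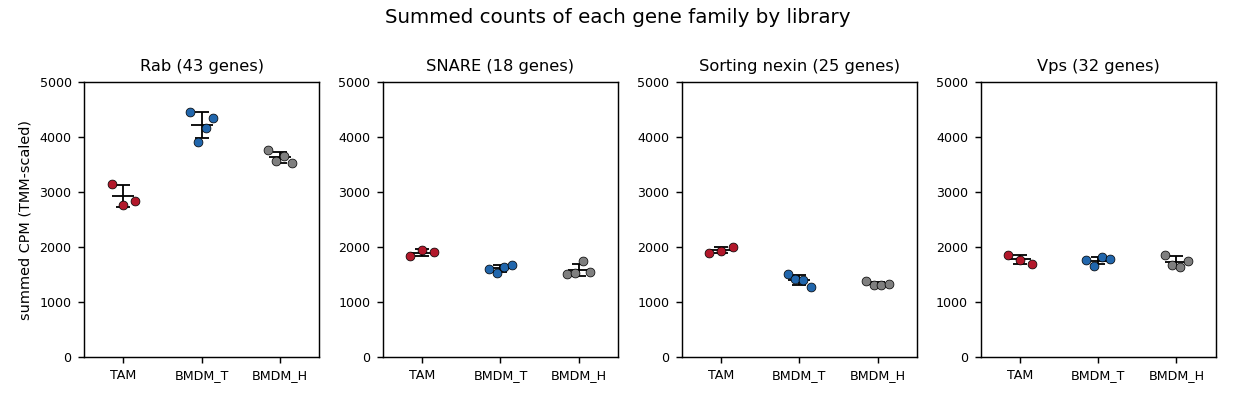
Summed CPM (TMM-scaled) of the genes of each family by library, untested genes included; points are libraries, bars the group mean, whiskers the SD (TAM n = 3, marrow groups n = 4 each). The Rab sums are lowest in TAM (2773 to 3155 CPM), the SNARE and sorting nexin sums are highest in TAM, and the Vps sums overlap.

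Against BMDM_H, 25 members were higher in TAM and 23 were lower of 98, 49.0% beside a background of 56.3% of all genes tested (28% higher, 28.3% lower). This comparison uses the same TAM libraries as that against BMDM_T, so the values are set side by side and not counted as a second observation. The 10 members called against BMDM_T and not against BMDM_H were Rab12, Rab35, Rab4b, Snx21, Snx4, Stx16, Stx17, Vps13c, Vps26a and Vps28, of which Rab4b and Stx16 passed the test between the marrow groups given below. Among 7 members called against BMDM_H and not against BMDM_T, Snx20 had a log2 fold change of 0.63 ± 0.15 against BMDM_H (adjusted p = 0.0017). Vamp2, a synaptobrevin of recycling vesicles, had 48.9, 65.8 and 43.2 CPM in TAM, 59.2, 56.3, 53.1 and 61.3 CPM in BMDM_T and 88.3, 70.8, 57.6 and 96.3 CPM in BMDM_H. Its change of -0.58 ± 0.20 against BMDM_H (adjusted p = 0.0191) was lost without BMDM_H replicate 1 (0.0683), TAM replicate 1 (0.0559) or TAM replicate 3 (0.1). Vps53, a GARP subunit, had a log2 fold change of 0.65 ± 0.23 (adjusted p = 0.0206, up to 0.104 without BMDM_H replicate 1). Rab33b, a Golgi Rab, had a log2 fold change of -0.94 ± 0.36 (adjusted p = 0.0302, up to 0.131 without BMDM_H replicate 2). Against BMDM_T, Rab33b had a log2 fold change of -0.79 (adjusted p = 0.0585). It passed there in some alternatives, among them limma-voom (adjusted p = 0.0403) and only the 2 groups compared (0.0312). Snx12 and Vps9d1 had log2 fold changes of 0.55 ± 0.21 and -0.56 ± 0.22, with adjusted p-values of 0.035 and 0.0371. Those were up to 0.206 for Snx12 without BMDM_H replicates 3 and 4 and up to 0.132 for Vps9d1 without TAM replicate 1. Against BMDM_T, Snx12 had an adjusted p of 0.0694, and it passed with library totals (0.0202), limma-voom (0.0467) and without BMDM_T replicate 1 (0.0201). Rab5c, given above, was the seventh such gene.

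Between the marrow groups few trafficking genes differed. In BMDM_T against BMDM_H, 1 member was higher and 1 was lower of 98, 2.04% beside a background of 4.82% of the 7518 genes (2.82% higher, 2% lower). Of the genes called in that background 58.6% were higher in BMDM_T, and 41.6% with library totals in place of TMM factors. Stx16, which brings vesicles from endosomes back to the trans-Golgi network (chromosome 2, 174076308 to 174099771 on the plus strand), had 58.1, 57.2, 57.7 and 47.8 CPM in BMDM_T, against 88.3, 109, 115 and 75.5 CPM in BMDM_H. The groups did not overlap, and the log2 fold change was -0.83 ± 0.18 (adjusted p = 0.0094, at most 0.0499 over the alternatives). TAM had 65.01, 92.3 and 88.4 CPM, above every BMDM_T library, with a log2 fold change of 0.58 ± 0.18 against BMDM_T (adjusted p = 0.0114, and 0.0656 without TAM replicate 2) and of -0.25 ± 0.18 against BMDM_H (adjusted p = 0.246).

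Rab4b, a Rab of fast recycling from early endosomes (chromosome 7, 27168424 to 27178896 on the minus strand), had 413, 306, 314 and 345 CPM in BMDM_T, against 259, 215, 208 and 213 CPM in BMDM_H. All BMDM_T libraries lay above those of BMDM_H, with a log2 fold change of 0.61 ± 0.15 (adjusted p = 0.0182). That call was lost without BMDM_H replicates 3 and 4 (0.153), BMDM_T replicate 1 (0.068), BMDM_H replicate 2 (0.0567) or BMDM_H replicate 3 (0.0581). TAM had 202, 204 and 218 CPM, near the BMDM_H values and below BMDM_T (log2 fold change -0.73 ± 0.16, adjusted p = 0.000566). A gene annotated on the same strand has an exon in the last kilobase of Rab4b, so their reads may not be separated. Stx3, a syntaxin of the cell surface, had 20.5, 37.8, 35.8 and 26.2 CPM in BMDM_T, against 39.8, 58.7, 52.1 and 59.9 CPM in BMDM_H. Its change of -0.78 ± 0.24 did not pass the test (adjusted p = 0.0675), but passed with the replicate number as a block (adjusted p = 0.0351). Rab24 and Snx20 passed with DESeq2, at adjusted p-values of 0.0257 and 0.014, against 0.0703 and 0.0768 in edgeR. Prelid1, whose exon lies in the end of Rab24, was higher in BMDM_T than in BMDM_H as well, with a log2 fold change of 0.90 (adjusted p = 0.0104).

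The other genes of the pathway are given from 3 lists. Of 97 Rab regulators and effectors, 68 were tested, and 21 were higher (30.9%) and 24 lower (35.3%) in TAM against BMDM_T, beside 30.1% and 28.7% of all genes tested. The 3 of smallest p were Tbc1d10c, a Rab GTPase-activating protein, Dennd3, a Rab exchange factor, and Sytl1, an effector of Rab27a. Tbc1d10c had 5.04 ± 1.55 CPM in TAM, against 174 ± 25.7 CPM in BMDM_T (SD, n = 3 and 4), with a log2 fold change of -5.06 ± 0.23. Dennd3 had 1.59 ± 0.507 CPM in TAM, against 70.7 ± 9.44 CPM in BMDM_T, with a log2 fold change of -5.39 ± 0.28. Sytl1 had no count in TAM and 59.7 ± 9.56 CPM in BMDM_T, at least 149-fold lower in TAM against a floor of 3 counts over the TAM group, and at least 194-fold lower against BMDM_H. Unc13d, the Rab27a effector Munc13-4, and Stxbp2, the partner of Stx11, were chosen after their values had been seen. Both were lower in TAM, with log2 fold changes of -2.26 ± 0.21 for Unc13d (adjusted p = 1.5e-08) and -0.94 ± 0.17 for Stxbp2 (adjusted p = 0.000105).

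Of 35 other SNAREs and SNARE regulators, 24 were tested, with 6 higher and 5 lower in TAM against BMDM_T, 45.8% in all, beside 58.9% of all genes tested. Among those of smallest p were Cplx2, a complexin that clamps SNARE pairs, at -5.80 ± 0.53, and Sec22c, at -2.36 ± 0.35 on the log2 scale. Both were falls, while the log2 fold changes of the tested genes of this list ran from -5.80 to 3.56. Cplx2 was also higher in BMDM_T than in BMDM_H, with 27.2 ± 9.23 CPM in BMDM_T, against 6.78 ± 3.07 CPM in BMDM_H (SD, n = 4 each; adjusted p = 0.00262). Syt11 and Tbc1d14 were the other genes of the 3 lists called between the marrow groups, higher in BMDM_T by 2.14 ± 0.39 and 1.07 ± 0.27 (adjusted p = 0.00164 and 0.0254), and Tbc1d14 was no longer called under 8 of the 19 alternatives. Of 74 other endosomal sorting genes, 56 were tested, with 20 higher and 11 lower in TAM against BMDM_T, 55.4% in all, beside the same 58.9%. Sort1 and Igf2r, receptors that carry lysosomal proteins from the Golgi, were lower, with log2 fold changes of -6.19 ± 0.30 and -3.34 ± 0.27. M6pr, the cation-dependent mannose 6-phosphate receptor, was higher by 1.66 ± 0.17, with 445 ± 13.6 CPM in TAM, against 141 ± 20.3 CPM in BMDM_T (SD, n = 3 and 4). Instead of 20, 13 endosomal sorting genes were higher in TAM without TAM replicate 3 or without BMDM_T replicate 1.

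The 20 members with too few counts to be tested reached at most 13.4 CPM in any library. They were Rab2b, Rab4a, Rab5a, Rab10, Rab11a, Rab15, Rab23, Rab34, Rab39, Rab42, Snx9, Snx14, Snx19, Snx32, Snx33, Stx1a, Vps13a, Vps33b, Vps37a and Vps37d. Among them Rab4a, the relative of Rab4b, had 31 counts in TAM, against 3 in BMDM_T and 2 in BMDM_H. Scaled for depth, BMDM_T over TAM was 0.179-fold (95% exact interval 0.0349 to 0.572), for counting error only. Rab42 and Vps37d each had 9 counts in TAM, 1 in BMDM_T and 0 in BMDM_H.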

How the data were processed

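Sorted mouse cells were profiled with 3'-end RNA libraries that carry barcodes and molecular identifiers, per the labels' protocols. The deposited counts are whole-number counts per gene that the authors made; the tools named are bcl2fastq, the aligner STAR 2.4.2a and the counter HTSeq, and the build is mm10, per the submitters' processing notes. Not given in the sources used here are the handling of molecular identifiers, the gene annotation, the strand used in counting and any filter on genes. The authors' table has 24421 rows, of which 14214 carry no symbol and were left out. Its symbols fit the rows of the 11 first-batch columns. Gene counts of the other 6 columns (BMDM_H replicates 5 to 8 and 2 samples of another group) had Spearman correlations of -0.0178 to 0.00233 with the first-batch columns, against at least 0.921 among the first-batch BMDM_H libraries, so they were not analysed by gene. All comparisons are therefore within 1 batch.

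Counts were fitted in one model of 11 libraries with edgeR 4.0.16 in R 4.3.3 (filterByExpr, TMM, quasi-likelihood test), with Benjamini-Hochberg adjustment over all 7518 genes tested. Total counts per library were 387940 to 3747929, and intervals, where given, cover counting error only. On simulated data with 200 changed genes, the fit recovered 53% of 2-fold and 95% of 4-fold changes in TAM against BMDM_T (7271 genes), 54% and 92% in TAM against BMDM_H (7246 genes), and 58% and 89% in BMDM_T against BMDM_H (7276 genes). False calls numbered 8, 14 and 9 in these comparisons, in that order. The simulation gave all groups the same mean profile apart from those 200 genes. In the data 58.9% of genes tested were called in TAM against BMDM_T, so these recovered shares do not give the power of the TAM comparisons. Replicates of a group differed beyond counting noise in every pair (chi-square per degree of freedom 2.67 to 14.6). The alternatives were RLE factors, library totals, DESeq2 1.42.0, limma-voom (limma 3.58.1), no filter beyond a count of 1, only the 2 groups compared, a replicate block, leaving out BMDM_H replicates 3 and 4, and leaving out each library in turn.

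Replicate numbers are in the labels, which do not say what they share. Same-numbered BMDM_T and BMDM_H libraries deviated together (correlations of 0.13 to 0.24), all over 0.1. Correlations between libraries of different number were not computed, so whether the numbers pair these libraries was not tested. The reported fit does not use the replicate number, which enters only the replicate block alternative. For TAM and either marrow group the same-numbered correlations were -0.05 to 0.08.

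The members and gene lists were chosen with earlier results of these data known. Named were called members of at least 30 CPM in the higher group whose TAM and BMDM_T libraries did not overlap (12 largest rises, 12 largest falls), members called between the marrow groups, the retromer core, the highest uncalled member of each role, and up to 6 members called against BMDM_H alone. Others are named as exceptions or for their role. Gene positions are from GENCODE M21, where all 118 members matched, and promoters from RefSeq (GRCm38.p6). Another gene's exon lies in the last kilobase of 19 members.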

Additional observations from a re-analysis of the deposited data

Results flagged for a closer look

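In 10 of 94 groups of 4 marrow libraries, over 47 named genes, 1 library lay far from the other 3 by Dixon's test, which chance does in about 1 of 20 groups. In BMDM_T, replicate 1 stood apart for 3 genes: Stx11 had 35.5 CPM against 64.9 to 67.2 CPM in the others, Rab27a had 137 CPM against 207 to 209 CPM, and Snx4 had 50.6 CPM against 25.3 to 28.9 CPM. Replicate 4 of BMDM_T had 47.8 CPM of Stx16, against 57.2 to 58.1 CPM. In BMDM_H, replicate 4, the shallowest library, stood apart for Snx4, with 5.20 CPM against 22.3 to 24.2 CPM, for Snx8, with 23.4 CPM against 14.5 to 15.9 CPM, and for Vps51, with 130.1 CPM against 78.1 to 82.0 CPM. Replicate 1 of BMDM_H had 14.3 CPM of Snx5, against 26.02 to 28.2 CPM, and 259 CPM of Rab4b, against 208 to 215 CPM. Replicate 3 of BMDM_H had 31.6 CPM of Vps26a, against 64.3 to 70.3 CPM. The calls of Stx11, Rab27a, Snx5 and Snx8 in TAM against BMDM_T held without each of these libraries.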

How the results depend on the processing

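Of the member calls, 41 of 51 in TAM against BMDM_T, 37 of 48 in TAM against BMDM_H and 1 of 2 in BMDM_T against BMDM_H held in every alternative that tested the gene, of 19 run, and 0 changed sign. The exceptions named in the report are given there. Members not called gained a call for 29 results in some alternative, and 64 such results changed sign in at least 1. Leaving out 1 library at a time gave 23 to 27 members higher and 24 to 27 lower in TAM against BMDM_T, and 20 to 26 higher and 20 to 23 lower in TAM against BMDM_H. It gave 0 to 2 higher and 1 lower in BMDM_T against BMDM_H, with 238 to 409 of all genes called there (238 without BMDM_H replicate 2), against 362 with all libraries. Without BMDM_H replicates 3 and 4 edgeR called 179 genes in that comparison and 0 members higher. DESeq2 called 3 members higher there. With library totals, or with the replicate block, 2 members were lower there in place of 1. The replicate block called 468 genes there and otherwise changed the member counts by no call in BMDM_T against BMDM_H. For TAM it gave 26 higher and 25 lower against BMDM_T and 25 and 23 against BMDM_H. Library totals moved the median log2 fold change of all genes by 0.15 in TAM against BMDM_T, 0.04 in TAM against BMDM_H and -0.11 in BMDM_T against BMDM_H, and called 35 members higher and 23 lower in TAM against BMDM_T. The 2 shallowest libraries are both BMDM_H and enter both comparisons with that group.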
